A study of Homo sapiens with 3 samples.

Results

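The enteroendocrine transcription factors INSM1, PAX4, NEUROD1, NEUROG3, NKX2-2, PROX1 and ETV1 were examined in a Caco-2/HT29 co-culture model of the intestinal epithelium. These 7 genes were taken by their symbols from the 33538 genes listed for each library. Of the 7 members, 6 had at least 1 UMI (unique molecular identifier, a tag that counts each captured RNA molecule once) in the cells kept, and NEUROD1 had none.

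Caco-2 and HT29 are human colorectal adenocarcinoma cell lines. The former differentiates into enterocyte-like cells, and the latter can give rise to mucus-producing and endocrine cells. Single-cell RNA was captured with 3′ chemistry from 3 libraries of both lines grown together on Transwell inserts. Caco-2 at passage 8 and HT29 at passage 13 were seeded together with Caco-2 in excess in all 3, and all were harvested on day 23 with no bacteria present. The 2 control libraries received no treatment, and the single LPS library received 1 ng/ml of lipopolysaccharide from E. coli O111:B4 from day 22 for 24 h. Both are tumor lines, so that every value describes cancer-derived cells rather than normal mucosa, and the single LPS library gives no spread of its own.

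In the gut, enteroendocrine cells (EECs) arise from secretory progenitors that escape Notch signaling. A short pulse of the basic helix-loop-helix factor NEUROG3 commits these progenitors to the endocrine fate, and NEUROD1, PAX4, NKX2-2 and INSM1 act downstream of it. PROX1 marks secretory progenitors and subsets of EECs, and ETV1 is an ETS-family factor expressed in L-cells, which make glucagon-like peptides.

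The members lie on 5 autosomes of GRCh38, and all are protein-coding genes in the GENCODE annotation. INSM1 occupies chromosome 20 from 20368104 to 20370949 on the plus strand and NKX2-2 lies on the same chromosome from 21511017 to 21514064 on the minus strand. PAX4 is on chromosome 7 from 127610292 to 127618142 and ETV1 on chromosome 7 from 13891229 to 13991425, both on the minus strand. NEUROG3 is on chromosome 10 from 69571698 to 69573422 (minus strand), NEUROD1 on chromosome 2 from 181668295 to 181680827 (minus strand) and PROX1 on chromosome 1 from 213983181 to 214041510 (plus strand). The antisense gene of NKX2-2, NKX2-2-AS1, had 0 UMIs in the kept cells.

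The upstream sequences of NEUROG3 and PAX4 are shown because, of the members with a sequence at hand, these had the most similar levels across cell clusters (Pearson r = 0.95 over 45 sums, described later). RefSeq promoter windows on GRCh38.p14 were found for 5 of the 7 members, and the windows of INSM1, whose r with PAX4 was 0.96, and of PROX1 were not. The 250 bases before the start site, on the minus strand of chr10:69573423-69573672 for NEUROG3 and chr7:127618143-127618392 for PAX4, are printed 5′ to 3′ with matches to the E-box CANNTG in capitals, the hexamer that basic helix-loop-helix factors bind. CANNTG reads the same on both strands.
NEUROG3: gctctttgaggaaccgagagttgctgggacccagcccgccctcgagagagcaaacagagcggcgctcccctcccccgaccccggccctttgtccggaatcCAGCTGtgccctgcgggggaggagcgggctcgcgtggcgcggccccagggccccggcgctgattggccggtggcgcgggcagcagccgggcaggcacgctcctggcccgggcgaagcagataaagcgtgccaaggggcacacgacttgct
PAX4: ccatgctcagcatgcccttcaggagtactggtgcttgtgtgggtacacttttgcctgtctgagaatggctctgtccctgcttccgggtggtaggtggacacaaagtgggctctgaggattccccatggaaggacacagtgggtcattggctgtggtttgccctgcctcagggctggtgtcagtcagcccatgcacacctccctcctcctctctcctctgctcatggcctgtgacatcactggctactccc
The NEUROG3 window held 1 match and the PAX4 window held 0. Of 35116 RefSeq windows of the same length, 61.8% held at least 1 match, and the median window held 1. A match is a run of letters and not a bound site. The letters CAGATG, or CATCTG on the other strand, were in neither window and in 12.2% of all windows.

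Depth limited what could be seen of such rare transcripts. The deposited libraries held 5811 to 6838 barcodes and 24185467 to 33893707 UMIs, and 4633, 4989 and 4850 cells (14472 in all) remained in control 1, control 2 and LPS after filtering. Median UMIs per kept cell were 5459 in control 1, 4103 in control 2 and 3574 in the LPS library, which was the shallowest. Between 9 and 11 barcodes were shared by each pair of libraries, none with identical counts. Libraries were made from 3 Transwell inserts seeded with cells of the same passages, so that the spread of the 2 controls is one between inserts and may be technical.

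Over whole libraries, PROX1 was the most abundant member and the other members were scarce. Levels are UMIs of a gene per 1000000 UMIs of the kept cells (CPM), with exact 95% Poisson intervals that cover counting error only. PROX1 was at 32.5 CPM (974 UMIs) in control 1, 28.4 (693) in control 2 and 25.1 (512) in LPS. INSM1, a zinc finger transcriptional repressor that promotes endocrine differentiation, was at 4.67 CPM (140 UMIs), 5.70 (139) and 2.10 (43) in the same order. PAX4, a paired-box repressor, was at 2.94 (88 UMIs), 3.52 (86) and 0.979 CPM (20). INSM1 and PAX4 were thus lower in LPS than in both controls, and for neither gene did the interval of LPS overlap that of a control.

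NKX2-2, a homeobox factor of the endocrine lineage, was at 0.701 CPM (21 UMIs), 1.11 (27) and 0.636 (13), with overlapping intervals. NEUROG3 was at 0.634 CPM (19 UMIs), 0.369 (9) and 0.0979 (2), and the interval of LPS overlapped that of control 2 but not that of control 1. ETV1 ran the other way, at 0.867 (26 UMIs), 0.861 (21) and 2.10 CPM (43). NEUROD1 was at 0 in all 3 libraries and thus not detected at this depth. A count of 0 over 14472 cells allows up to 0.0207% of cells with a UMI.

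**Figure D1:**
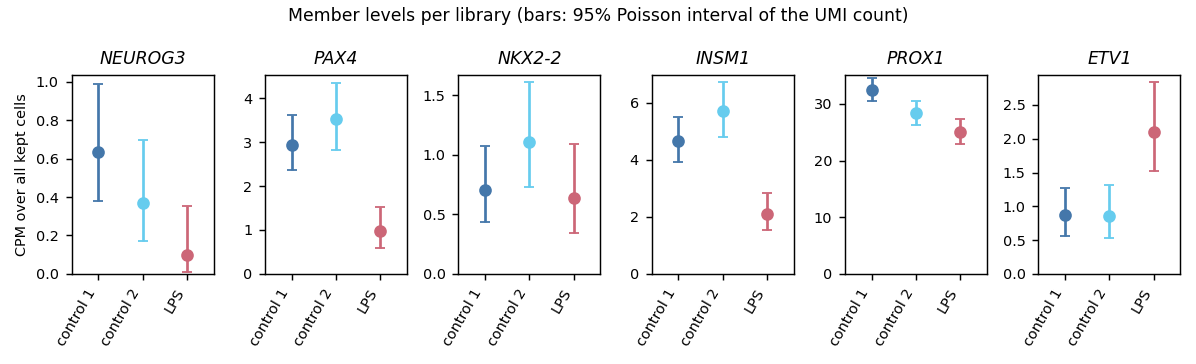
CPM of the 6 detected members over all kept cells of control 1, control 2 and LPS (linear y axes from 0, 1 panel per gene), with exact 95% Poisson intervals. INSM1 and PAX4 sit below both controls in LPS, and ETV1 sits above them at 2.10 CPM against 0.867 and 0.861.

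LPS was compared with control over whole-library sums to ask whether the endotoxin shifted these regulators. In edgeR's quasi-likelihood test with Benjamini-Hochberg adjustment, 17 of 16135 genes (0.105%) passed an adjusted p of 0.05, and 0 of the 6 tested members did. The genes that passed were 11 raised in LPS (0.0682%) and 6 reduced (0.0372%). At an unadjusted p under 0.05 there were 5 members and 751 genes, and DESeq2 called 0 members and 6 genes. INSM1 had a log2 fold change of -1.37 (SE 0.30, edgeR adjusted p = 0.107) and PAX4 of -1.79 (SE 0.39, adjusted p = 0.107). NEUROG3 was at -2.40 (SE 1.04, adjusted p = 0.956), NKX2-2 at -0.56 (SE 0.57, 0.963), PROX1 at -0.36 (SE 0.16, 0.956) and ETV1 at 1.20 (SE 0.42, 0.956). With 19 and 9 UMIs in the controls and 2 in LPS, NEUROG3 passed the filter on low counts through control 1, where it was highest. Without control 1 it was not kept by that filter. With 2 controls and 1 LPS library the fit had a single residual degree of freedom, and the lone LPS library was assumed to vary as the controls do. Over the 6 members, NEUROG3 among them, the log2 fold changes had a median of -0.97, and over all tested genes of 0.01. Without the filter on low counts, INSM1 (adjusted p = 0.00249) and PAX4 (adjusted p = 0.00143) passed, and no member passed in the other fits.

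Among genes of the same pathway, 0 of the 14 tested of 23 other EEC transcription factors passed this test, and 0 of the 16 tested Notch pathway genes. RFX6, a regulator of the endocrine lineage, was at 1.00, 1.27 and 0.245 CPM in control 1, control 2 and LPS (log2 fold change -2.26, SE 0.67, edgeR adjusted p = 0.851). RUNX1T1, a transcriptional corepressor, had 16 and 22 UMIs in the controls and 0 in LPS. Of 25 tested hormone and granule genes 1 rose, SST encoding somatostatin (log2 fold change 3.15, SE 0.29, edgeR adjusted p = 1.05e-05), and 1 fell, CPE encoding the prohormone-trimming carboxypeptidase E (log2 fold change -1.57, SE 0.26, adjusted p = 0.00938). The SST change rested on few cells, since 1018 SST UMIs of the LPS library came from 20 cells and a single cell held 507 of them.

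Cells were then grouped to find which of them carried the members. Clusters were made without the members, and a cluster was called EEC-like from hormone and granule markers alone. Of 15 clusters, 3 were EEC-like, with 238 cells in all. EEC-like cells of the Caco-2 line (177 cells in 2 clusters) were led by genes that included CLPS, TUBA1A, HEPACAM2 and CPE, and 1 of the 2 clusters also by CHGA, the chromogranin A gene. EEC-like cells of the HT29 line (61 cells) were led by SST, GCG and SCG2. The line of this last cluster was less certain. Of its UMIs in the study's HT29 and Caco-2 gene lists together, 30.0% were in the HT29 list. This share was past the midpoint of the range over clusters, and the cluster is called HT29 for that, although it lay between the limits set for either line. Of its 61 cells, 37 lay above the limit used to call single cells (28.3%), and 20 lay within 2 percentage points of it. A second measure summed 62 genes that in every library had at least 50 CPM in other HT29 cells and over 20 times their level in Caco-2-line cells. They summed to 7277 to 8887 CPM in this cluster and to 893.5 to 1613 CPM in EEC-like Caco-2 cells. Goblet-like cells were at 11899 to 15980 CPM and other HT29 cells, where the genes were chosen for being high, at 18661 to 22877 CPM. Other Caco-2-line cells were at 435.2 to 479.3 CPM and enterocyte-like cells at 401.6 to 504.5 CPM. By difference the cluster was nearer to EEC-like Caco-2 cells, and by ratio nearer to other HT29 cells. The measure had 1 side only, since 0 genes met the same rule for Caco-2. With log normalization in place of integration, no EEC-like HT29 cluster was formed. In that setting the secretory clusters were also not split a second time, and in the main run this cluster came from that split. The effects of these steps cannot be told apart.

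INSM1, PAX4, NEUROG3 and NKX2-2 were concentrated in these rare cells. Of 322 INSM1 UMIs, 81.4% lay in the 238 EEC-like cells, which were 1.64% of the kept cells. The same share was 84.0% of 194 UMIs for PAX4, 93.3% of 30 for NEUROG3 and 83.6% of 61 for NKX2-2. ETV1 was less concentrated, with 45.6% of 90 UMIs, and PROX1 was broad, with 10.1% of 2179. With log normalization and no second split, where no EEC-like HT29 cluster was formed, the ETV1 share was 3.33%. Grouped cells are not replicates, and clusters share genes with the members, so these values are a description with no test.

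**Figure D2:**
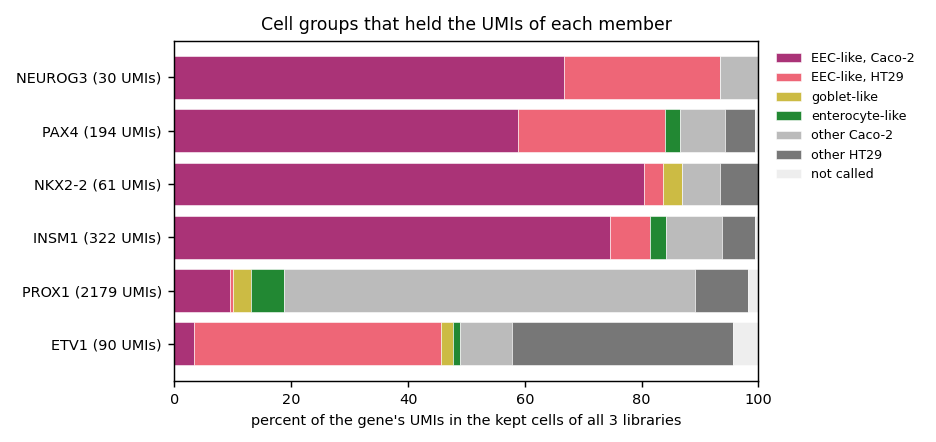
Share of each detected member's UMIs (x axis, percent, all 3 libraries pooled) by cell group, with the number of UMIs beside each gene. NEUROG3, PAX4, NKX2-2 and INSM1 had 81.4% to 93.3% of their UMIs in EEC-like cells, whereas 70.4% of PROX1 UMIs were in other Caco-2-line cells.

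Background was read from enterocyte-like cells (2086 cells, median 4334 UMIs), which should lack endocrine factors. INSM1 had a UMI in 68.4% of EEC-like Caco-2 cells (median 2538 UMIs), in 19.7% of EEC-like HT29 cells (median 2849 UMIs) and in 0.336% of enterocyte-like cells. For PAX4 these shares were 36.2%, 34.4% and 0.240%, and by library it was in 27 of 62 EEC-like Caco-2 cells against 11 of 17 EEC-like HT29 cells in control 1, in 32 of 82 against 5 of 20 in control 2 and in 5 of 33 against 5 of 24 in LPS. NEUROG3 was found in 10.2%, 9.84% and 0%, and NKX2-2 in 23.7%, 3.28% and 0%. After each cell was thinned to 1500 UMIs, INSM1 was in 51.4%, 14.8% and 0.0959% of the 3 groups. Goblet-like cells (164 cells), the other secretory class, had 0 UMIs of INSM1, PAX4 and NEUROG3, so that up to 1.83% of such cells could still hold a UMI. For NEUROD1, a count of 0 allows up to 5.20 CPM in EEC-like Caco-2 cells and 14.5 CPM in EEC-like HT29 cells.

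The levels of some members differed between the 2 EEC-like groups. INSM1 was at 516, 456 and 172 CPM in EEC-like Caco-2 cells of control 1, control 2 and LPS, and at 100, 82.3 and 130 CPM in EEC-like HT29 cells. The Caco-2-line cells were the higher in each library, and the Poisson intervals were separate in both controls but overlapped in LPS (22 and 10 UMIs). NKX2-2 was at 92.2, 77.5 and 86.2 CPM in the former and at 0, 16.5 and 13.0 CPM in the latter, where it rested on 2 UMIs and the intervals overlapped in control 2 and LPS. PROX1 followed the same order, at 410, 336 and 321 CPM against 100, 16.5 and 51.9 CPM, with separate intervals in each library.

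ETV1 showed the opposite order. It was at 9.22, 4.30 and 0 CPM in EEC-like Caco-2 cells (3 UMIs in all) and at 172, 148 and 221 CPM in EEC-like HT29 cells. PAX4 did not separate the groups, at 212, 263 and 54.9 CPM against 474, 98.7 and 130 CPM, and neither did NEUROG3, at 55.3, 30.1 and 7.84 CPM against 71.8, 32.9 and 13.0 CPM. Within the EEC-like Caco-2 cells, the cluster with CPE and CHGA among its leading genes (57 cells) had more INSM1 (707 CPM) and PAX4 (369 CPM) than the other cluster (120 cells, 307 and 133 CPM). PROX1 was alike in both, at 407 and 343 CPM with overlapping Poisson intervals.

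**Figure D3:**
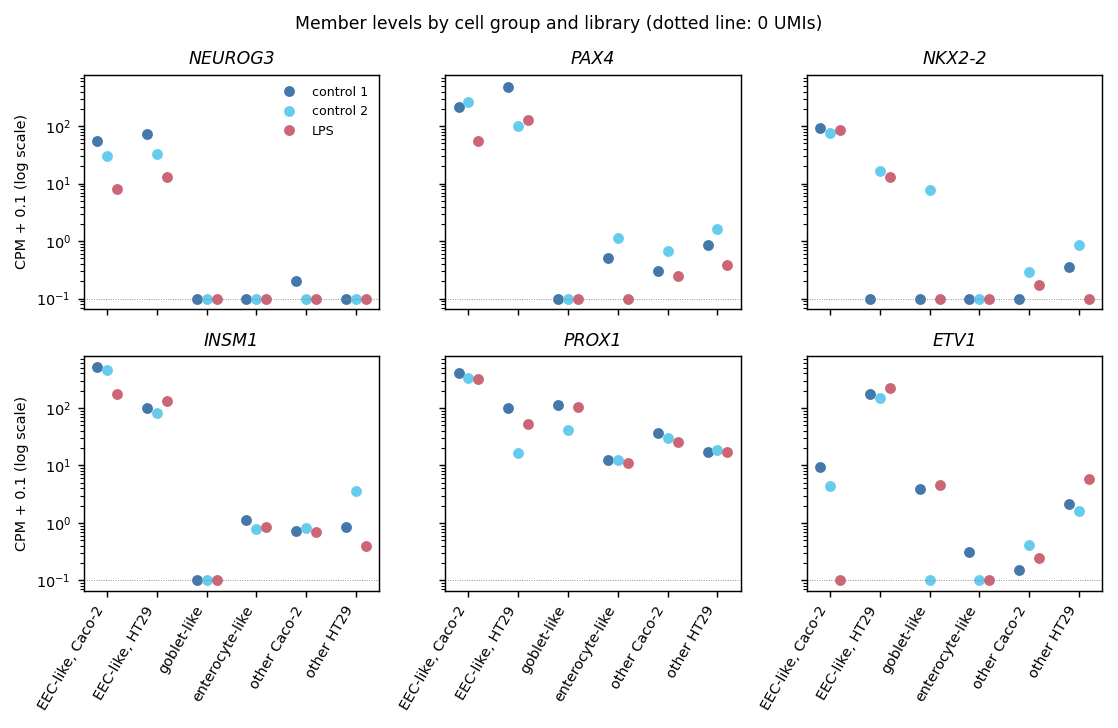
CPM plus 0.1 (log10 y axis) of each detected member in 6 cell groups, 1 point per library; points on the dotted line had 0 UMIs. Points of INSM1, NKX2-2 and PROX1 lie higher in EEC-like Caco-2 cells than in EEC-like HT29 cells in all 3 libraries, and those of ETV1 lower; for INSM1 in LPS and NKX2-2 in control 2 and LPS the Poisson intervals (not drawn) overlapped.

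Other EEC factors divided the 2 groups as well. MYT1, a zinc finger factor, was at 72.8 CPM in EEC-like Caco-2 cells and 14.5 CPM in EEC-like HT29 cells, and DLL1, a Notch ligand, at 95.3 and 9.64 CPM. ISL1, a LIM homeobox factor, was higher in EEC-like HT29 cells (81.9 CPM) than in EEC-like Caco-2 cells (1.73 CPM), as was HES6 (979 against 272 CPM), an inhibitor of HES1. RFX6 was found in both, at 74.5 and 48.2 CPM. Among hormones and granule genes, EEC-like Caco-2 cells had CPE (397 CPM), PCSK1N (553 CPM) and CHGA (106 CPM) with 0 UMIs of SST and GCG, whereas EEC-like HT29 cells had SST (5920 CPM), GCG (771 CPM), the glucagon gene, and UCN3 (198 CPM), encoding urocortin 3, with 0 UMIs of CPE and CHGA. The pooled SST value was carried by LPS, which had 989 of its UMIs, and in the controls alone SST was at 1882 ± 1038 CPM and UCN3 at 122 ± 9.89 CPM (SD, n = 2). The pooled values of EEC-like Caco-2 cells were carried by the controls, with CPE at 492 ± 7.99, PCSK1N at 664 ± 13.1 and CHGA at 134 ± 53.3 CPM (SD, n = 2). In LPS these 3 genes were at 62.7, 165 and 0 CPM. ATOH1, the factor that opens the secretory fate, was at 3.47 and 4.82 CPM.

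PROX1 and ETV1 were also found outside the EEC-like cells. PROX1 was at 85.5 CPM in goblet-like cells, at 55.0 CPM in a Caco-2-line cluster led by ALB and AFP, at 31.4 CPM in other Caco-2-line cells, at 17.3 CPM in other HT29-line cells and at 11.9 CPM in enterocyte-like cells. In other Caco-2-line cells it was at 36.0, 30.3 and 25.9 CPM in control 1, control 2 and LPS, and in enterocyte-like cells at 12.5, 12.1 and 10.8 CPM. ETV1 was at 2.98 CPM in other HT29-line cells, with a UMI in 1.42% of them, and at 0.164 CPM in other Caco-2-line cells, with a UMI in 0.0861%. In other HT29-line cells ETV1 was at 2.00, 1.51 and 5.82 CPM in control 1, control 2 and LPS.

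The 2 lines were compared with the EEC-like cells left out, on 3 library sums each. In edgeR's quasi-likelihood test, 9708 of 13947 genes (69.6%) passed an adjusted p of 0.05, so that a call was the usual outcome for a gene. Genes raised in HT29-line cells were 33.8% of those tested, and genes reduced there 35.8%. Only PROX1 and ETV1 had enough counts to be tested. ETV1 had 34 UMIs in other HT29-line and 2 in goblet-like cells, against 8 in other Caco-2-line and 1 in enterocyte-like cells, so that it passed the filter on low counts through the line where it was high. It was higher in HT29-line cells (log2 fold change 4.16, SE 0.59, edgeR adjusted p = 1.10e-05), and PROX1 was lower (log2 fold change -0.40, SE 0.15, adjusted p = 0.0292). The PROX1 call was lost with DESeq2 (adjusted p = 0.0561), without control 1 (0.0845) and without control 2 (0.186), whereas the ETV1 call held in each of these. The ETV1 log2 fold change was 5.09 without control 2, 3.32 without LPS and 4.11 with no filter on low counts. With the library as a block, PROX1 had an adjusted p of 0.00670. Of 10 tested other EEC factors, 4 were higher in HT29-line cells (HES6, ATOH1, ISL1 and RFX3) and 3 lower (PDX1, FOXA1 and FOXA2), and of 15 tested Notch pathway genes 7 were higher and 4 lower. The list medians were 0.10 and 0.30 on the log2 scale, against -0.05 over all genes tested.

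Members were found together in single cells. Of 14472 cells, 173 had UMIs of 2 or more members, and 139 of these were EEC-like. In EEC-like Caco-2 cells 119 of 177 cells (67.2%) had 2 or more members and 17 had none, and in EEC-like HT29 cells 20 of 61 (32.8%) had 2 or more and 22 had none. Among enterocyte-like cells 2 of 2086 (0.0959%) had 2 or more. In these EEC-like Caco-2 cells PAX4 was in 51 of 121 cells with INSM1 (42.1%) and in 23.2% of those without it, and NEUROG3 was in 16 (13.2%) and in 3.57%. By library, the PAX4 shares were nearly alike in control 1, at 44% and 41.7%. They were 44.8% and 25% in control 2 and 23.1% and 10% in LPS. NEUROG3 was in 10 of 50 cells with INSM1 and 8.33% of the rest in control 1. In control 2 it was in 6 of 58 and 0%. In LPS the order was reversed, at 0 of 13 and 5%, which rested on 1 cell with NEUROG3. Over all libraries, PROX1 was in 16 of 18 cells with NEUROG3 (88.9%) and in 62.3% of the rest, but in 64.1% of cells with PAX4 and 65.5% of the rest. The most frequent set in EEC-like Caco-2 cells was INSM1 with PROX1 (29 cells), followed by INSM1, PAX4 and PROX1 (19 cells).

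In EEC-like HT29 cells the most frequent set was ETV1 alone (9 cells), and 10 of 22 cells with ETV1 had PAX4. Hormone genes were counted in these cells with and without PAX4. SST was in 2 of 21 cells with PAX4 (9.52%) and in 15 of 40 without it (37.5%), and GCG was in 5 of 21 (23.8%) and in 24 of 40 (60%). The GCG share was lower among cells with PAX4 in each library, with 3 of 11 against 6 of 6 cells in control 1, 2 of 5 against 10 of 15 in control 2 and 0 of 5 against 8 of 19 in LPS. Cells with PAX4 were not the shallower, with a median of 3020 UMIs against 2670. PROX1 was in 9 EEC-like HT29 cells, of which 0 had SST, against 17 of 52 cells without PROX1. NEUROG3 was in 6, of which 0 had SST, against 17 of 55 without NEUROG3, and both sets are small. For ETV1, GCG was in 11 of 22 cells with it and in 18 of 39 without it. SST was in 10 of 39 cells without ETV1 and in 17 of all 61, so its share of cells was not higher without ETV1. In CPM, SST was at 1869 in cells with ETV1 and 8261 in those without, but a single LPS cell held 507 of the 989 LPS UMIs. UCN3 was at 342 and 114 CPM. These are counts of cells from 3 libraries and were not tested.

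The number of EEC-like cells and the levels in them were compared between LPS and control. EEC-like Caco-2 cells were 1.34% of control 1 (62 cells, exact 95% binomial interval 1.03% to 1.71%), 1.64% of control 2 (82 cells, 1.31% to 2.04%) and 0.680% of LPS (33 cells, 0.469% to 0.954%). The LPS share was below both controls, and its interval overlapped neither. These intervals cover counting error only, and the shares are of kept cells. EEC-like Caco-2 cells were shallow (median 2538 UMIs), and the minimum UMIs for a kept cell was higher in control 1 than in control 2 and LPS. Before doublet removal, 4929 of 5811 barcodes passed the filters in control 1, 5307 of 6495 in control 2 and 5160 of 6838 in LPS. Whether shallow EEC-like cells were lost unequally between libraries was not tested. The cluster with CPE and CHGA among its leading genes had 25, 27 and 5 cells in the same order. CHGA itself was at 0 CPM in the EEC-like Caco-2 cells of LPS. EEC-like HT29 cells were 0.367%, 0.401% and 0.495%, with overlapping intervals.

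In the EEC-like Caco-2 cells themselves, INSM1 was at 486 ± 42.3 CPM (SD, n = 2) in the controls and 172 CPM in LPS, 0.355 times the control mean. PAX4 was at 237 ± 35.8 CPM (SD, n = 2) and 54.9 CPM, 0.231 times the control mean, and for both genes the Poisson interval of LPS overlapped neither control. Lower levels were seen within the larger cluster alone, with INSM1 at 353 and 374 CPM in the controls and 156 CPM in LPS, and PAX4 at 115, 211 and 43.4 CPM. This cluster had 28 cells in LPS, and for PAX4 in it the Poisson intervals of LPS and control 1 overlapped. Over the EEC-like Caco-2 cells of both clusters, PROX1 and NKX2-2 were not separated, at 410, 336 and 321 CPM and at 92.2, 77.5 and 86.2 CPM with overlapping intervals. The INSM1 difference was present after thinning to 1500 UMIs, with a UMI in 54.8%, 59.8% and 24.2% of EEC-like Caco-2 cells. With a single LPS library these differences have no replicate check, and a change with LPS cannot be told apart from a difference between culture inserts or library preparations. When the EEC-like cells were left out of the whole-library sums, the log2 fold change was -0.84 (SE 0.59) for INSM1, -1.88 (SE 0.98) for PAX4, -0.34 (SE 0.17) for PROX1 and 1.49 (SE 0.54) for ETV1, and none passed edgeR's test (adjusted p = 0.960 to 0.961, 10 genes called in all).

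**Figure D4:**
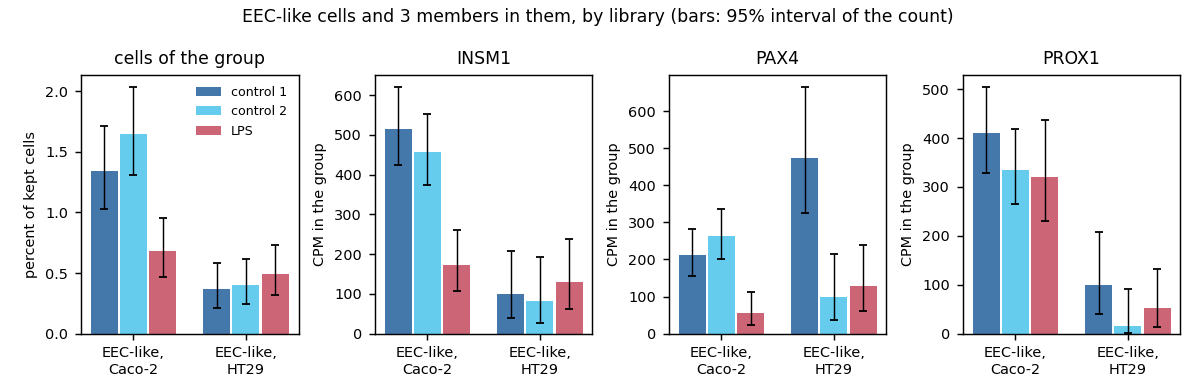
Left, percent of kept cells that were EEC-like, by line and library, with exact 95% binomial intervals; the other panels show CPM of INSM1, PAX4 and PROX1 in those cells with exact 95% Poisson intervals (linear axes from 0). In Caco-2-line cells the LPS bar is the lowest for cell share (0.680%), INSM1 (172 CPM) and PAX4 (54.9 CPM).

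The genes whose levels most resembled those of each member were listed over 45 sums (15 clusters by 3 libraries) of log2(CPM + 10), as a description. The sums share libraries and a common low floor, and the few EEC-like sums set most of each coefficient. INSM1 was nearest to CADPS, a factor of dense-core vesicle release (Pearson r = 0.98), to PAX4 (0.96), and to HEPACAM2, AL450311.2 and TUBA1A (0.92 to 0.93). PAX4 was nearest to INSM1 and CADPS (both 0.96) and to SCG2, the secretogranin II gene (0.93), CACNA1A, a calcium channel subunit (0.92), and LIMD2 (0.91). PROX1 was nearest to BTG2, an antiproliferative gene (0.89), HEPACAM2 (0.87), AL450311.2 (0.87), CLPS, the pancreatic colipase gene (0.86), and FOXA2, a forkhead factor (0.85). Among the members, over these sums, NKX2-2 resembled INSM1 (0.93) more than PAX4 (0.82), and ETV1 resembled PAX4 (0.62) more than PROX1 (0.17). NEUROG3, with only 30 UMIs, resembled PAX4 (0.95) more than INSM1 (0.90). In single cells with NEUROG3 the order differed by group. In EEC-like Caco-2 cells 16 of 18 had INSM1 and 6 of 18 had PAX4, and in EEC-like HT29 cells 2 of 6 and 5 of 6. The same orders were seen over all cells of each group. INSM1 and PAX4 were in 68.4% and 36.2% of all EEC-like Caco-2 cells and in 19.7% and 34.4% of all EEC-like HT29 cells.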

How the data were processed

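RNA of single cells from 3 co-cultures of human cell lines was counted. The authors mapped reads to GRCh38 and counted them with Cell Ranger (3.1.0 per the file headers), and the deposited values are raw UMI counts per gene and barcode. Whether counting used strand is not given in the sources used here. Cells were kept at the study's minimums (2250 UMIs and 770 genes in control 1, 1500 and 700 in the others) and at most 20% mitochondrial UMIs, and the top 6% of Scrublet scores (924 cells in all) were removed as doublets because the automatic cut marked 1 cell. Kept cells were normalized with SCTransform and integrated with Seurat 5.3.0 on 3000 features less the 5 members among them, then clustered by Leiden (leidenalg 0.10.2, 50 components, resolution 0.5). Secretory clusters were split again at 0.4, except in the alternative with log normalization. A cluster was named from at least 3 raised markers at 5 CPM or more, with at least 2 in its top 10 genes. The line of a cluster was read from its UMIs in the study's HT29 list (397 genes) and Caco-2 list (757 genes). A line was given when the HT29 list's share of the UMIs in both lists lay within 25% of either end of the range over clusters. Both rules were set after the clusters were seen, and so was the placing of the EEC-like HT29 cluster (30.0%) on the HT29 side by the midpoint of that range.

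UMIs were summed per library, or per library and line, and tested with edgeR 4.0.16 (TMM, filterByExpr, quasi-likelihood test, Benjamini-Hochberg adjustment over all genes). DESeq2 1.42.0 was an alternative. No block can join LPS and control. For the line comparison, the 2 sums of each library come from the same cells' library, and their deviations from the line means correlated at 0.25, 0.07 and 0.14 over genes. SE is the log2 fold change divided by the root of edgeR's F. The tests were also run on simulated counts with the same set spread for every gene and library. Such counts cannot show whether the lone LPS library varies as the controls do. Intervals are exact, at 95%, and cover counting error only. The members and gene lists were chosen with earlier results of these data known. Named genes were the members, list genes past a test or with high CPM in EEC-like cells, and the 5 genes most like each member with at least 100 UMIs. Coordinates come from GENCODE on GRCh38 and sequences from RefSeq on GRCh38.p14.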

Additional observations from a re-analysis of the deposited data

Results flagged for a closer look

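Members were screened for LPS levels on opposite sides of both controls in the 2 EEC-like groups, with at least 10 UMIs in each group. INSM1 alone was picked by this screen. Its CPM in LPS was 0.355 times the control mean in EEC-like Caco-2 cells and 1.42 times the control mean in EEC-like HT29 cells. In the former LPS lay below both controls and in the latter above both. The difference between the groups was not tested. In EEC-like HT29 cells the counts were 7, 5 and 10 UMIs in control 1, control 2 and LPS, and their Poisson intervals overlapped.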

How the results depend on the processing

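The precision of the detected members other than PROX1 was limited by 30 to 322 UMIs over 3 libraries, and the LPS comparison by its single library. For LPS against control, members called were 0 in every fit that gave a test except without a filter on low counts, where they were 2, and no log2 fold change reversed. Genes called over the whole table were 17, and 6 with DESeq2, 46 without the filter, 11 with doublets kept and 10 without the EEC-like cells, an alternative chosen after seeing the data. Leaving out either control left 1 library a side and no test, with log2 fold changes of -1.49 and -1.26 for INSM1, -1.89 and -1.69 for PAX4 and 1.23 and 1.16 for ETV1 without control 1 and control 2. NEUROG3 was not kept by the filter on low counts without control 1 and was at -2.75 without control 2. No paired analysis was possible because LPS and control share only 1 replicate number.

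For HT29-line against Caco-2-line cells, the 2 members called became 1 with DESeq2, 1 to 2 with a library left out, and 4 with log normalization. NKX2-2 was called as well without the filter on low counts (log2 fold change 2.58, edgeR adjusted p = 0.0374). INSM1 was called as well with doublets kept (1.21, edgeR adjusted p = 0.0266). With the line called per cell, INSM1 was at -0.45 and was not called (edgeR adjusted p = 0.356). The log normalization run gave the most calls. The last setting used neither integration nor a second split of secretory clusters, and it put the EEC-like HT29 cells among the HT29-line cells. With the library as a replicate block the called members stayed 2 (log2 fold change -0.40 for PROX1 and 4.08 for ETV1), with 10449 genes called against 9708, and no call changed. Log normalization, with neither integration nor a second split of secretory clusters, gave no EEC-like HT29 cluster, and these steps were not varied singly. The share of member UMIs in EEC-like cells, 26.6%, was then 21.5%, and the ETV1 share fell from 45.6% to 3.33%. In that setting the LPS to control ratio of INSM1 in EEC-like Caco-2 cells was 0.526 in place of 0.355. Thinning to 1500 UMIs raised the share of member UMIs to 39.2% and lowered the cells with 2 or more members from 173 to 97.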
